A study of Mus musculus with 6 samples.

Results

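The genes of 8 transcription factors of myeloid differentiation were followed across 6 mouse gene arrays. They are the C/EBP genes Cebpa, Cebpb, Cebpd, Cebpe and Cebpg, the interferon regulatory factor gene Irf8, and the paired repressor genes Gfi1 and Gfi1b. They were chosen by name, and 8 of 8 were among the 19938 genes measured by a probe set linked to 1 gene, each with 1 such probe set. The arrays held 3 populations with 2 arrays each, all of them descended from bone marrow cells transduced with Nup98-HoxB4, a fusion gene that keeps progenitors of blood cells growing in culture. HSC are the undifferentiated cells expanded with IL6 and SCF. ProT are such cells grown with IL7 and DLL4, a ligand of Notch receptors, and labelled as committed T cells. DP are double positive thymocytes that formed after ProT cells were injected into a Rag2-/- mouse, a host that makes no mature T or B cells of its own but keeps its other blood and stromal cells. All 3 populations carry the fusion, so no array shows the genes without it. The sources used here give no strain, age or number of mice and do not say whether replicates were separate cultures or animals. The p-values therefore measure only how far these arrays spread, and that spread may be technical.

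C/EBP proteins are basic leucine zipper factors that bind DNA as dimers. C/EBPα, made from Cebpa, is required for granulocyte and monocyte progenitors to form, and C/EBPε acts later in granulocytes. C/EBPβ supports granulocyte production under infection and macrophage activation, C/EBPδ belongs to the acute phase response, and C/EBPγ lacks an activation domain of its own and works as a partner in dimers. IRF8 directs progenitors to monocytes and dendritic cells and away from neutrophils. GFI1 and GFI1B are zinc finger repressors that recruit the histone demethylase LSD1 and histone deacetylases. GFI1 acts in neutrophils and in T cells, GFI1B in red cells and platelet precursors, and each can repress the other's gene.

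The sequences before the starts of 4 of these genes are shown because these genes stand for the patterns described below. Cebpa and Irf8 fell from HSC to ProT, Gfi1b fell from ProT to DP, and Gfi1 had its lowest signal in ProT. Each run is the 250 bases before the gene's outermost start in RefSeq (build GRCm38.p6), written 5′ to 3′ on the gene's strand. Capitals mark the C/EBP core TTGCG and the TATA box TATAAA in Cebpa, the STAT motif TTCNNNGAA and the TATA box in Irf8, the GFI1 core AATC (GATT on the other strand) in Gfi1 and Gfi1b, and the GATA motif GATAAG in Gfi1b.
Cebpa (chr7:35119043-35119292, plus strand): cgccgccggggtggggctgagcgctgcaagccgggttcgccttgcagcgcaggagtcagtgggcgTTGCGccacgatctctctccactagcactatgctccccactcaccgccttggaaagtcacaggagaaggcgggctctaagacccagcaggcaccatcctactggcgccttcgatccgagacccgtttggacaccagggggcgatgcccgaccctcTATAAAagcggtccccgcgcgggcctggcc
Irf8 (chr8:120736108-120736357, plus strand): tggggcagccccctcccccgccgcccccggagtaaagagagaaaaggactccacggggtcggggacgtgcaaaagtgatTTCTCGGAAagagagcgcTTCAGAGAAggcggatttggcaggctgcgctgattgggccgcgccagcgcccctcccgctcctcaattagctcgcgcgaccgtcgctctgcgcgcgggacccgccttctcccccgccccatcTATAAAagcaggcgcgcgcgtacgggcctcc
Gfi1 (chr5:107725806-107726055, minus strand): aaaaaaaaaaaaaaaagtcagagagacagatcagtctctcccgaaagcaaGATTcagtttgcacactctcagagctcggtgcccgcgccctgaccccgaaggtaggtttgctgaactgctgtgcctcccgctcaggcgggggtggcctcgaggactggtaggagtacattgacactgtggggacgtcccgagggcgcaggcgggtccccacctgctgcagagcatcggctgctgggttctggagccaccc
Gfi1b (chr2:28621983-28622232, minus strand): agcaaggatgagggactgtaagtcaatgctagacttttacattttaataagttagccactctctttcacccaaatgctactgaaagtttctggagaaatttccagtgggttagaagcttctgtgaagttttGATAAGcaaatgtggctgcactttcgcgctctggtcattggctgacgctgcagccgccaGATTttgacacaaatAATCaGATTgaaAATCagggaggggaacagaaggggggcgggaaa

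All motifs were searched on both strands, except the TATA box, which was searched on the gene's strand, and the marked matches do not overlap each other, although an unmarked GFI1 core in Irf8 shares 1 base with its STAT motif. The Cebpa window held 1 C/EBP core, starting 185 bases before the start, and 14.5% of the 32851 RefSeq windows of this length held at least 1. The TATA box began 30 bases before the start of Cebpa and 31 before that of Irf8, and 7.59% of all windows held it. In Irf8 the STAT motif occurred 2 times, a number reached by 0.317% of windows. The Gfi1b window also held 1 STAT motif, unmarked, at 133 bases before its start (7.02% of windows). The Gfi1b window held 4 GFI1 cores, starting 60, 45, 40 and 33 bases before its start, a number reached by 7.04% of windows. The Gfi1 window held 1, a number reached by 69.0% of windows. Unmarked GFI1 cores numbered 3 in the Irf8 window shown (17.7% of windows) and 0 in the Cebpa window. Gfi1b also had 1 GATA motif at 119 bases before its start (6.55% of windows). A second C/EBP form, TTGCNNAA, was found 1 time in the Gfi1 window, at 143 bases before the start (9.56% of windows). A composite motif of PU.1 and IRF factors was in none of the windows of these genes (2.30% of all windows). These matches describe letters only, since the arrays measure no binding. The table of RefSeq windows held 6 of the 8 genes.

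The values are RMA signals on the log2 scale, so a difference of 1 is a factor of 2. Each array had a median between 6.73 and 6.91, and replicate arrays had a Pearson correlation over probe sets of 0.991 in HSC, 0.995 in ProT and 0.997 in DP. No value says whether a probe set lay above background. Where the lower of both means was under 7.17, the median of all gene values, the fold or log2 change is therefore a lower bound on the size of the difference. Folds of this kind, and changes of this kind that passed the test, are written with "at least" or named as bounds. Levels of different genes are not set against each other, because probe sets differ in how brightly they report. Of 10 T cell markers, 0 had a mean at or above that median in HSC, 4 in ProT and 10 in DP. Of 7 measured stem and progenitor markers 6 did in HSC, among them Kit (11.25) and Cd34 (12.75), but not Procr (6.13). All 10 neutrophil markers also did in HSC, with a mean level per array of 10.56 to 10.78, against 6.33 to 7.11 in ProT and 6.97 to 7.03 in DP. In RNA from mixed cells, fewer cells of a type and less RNA per cell cannot be told apart.

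**Figure D1:**
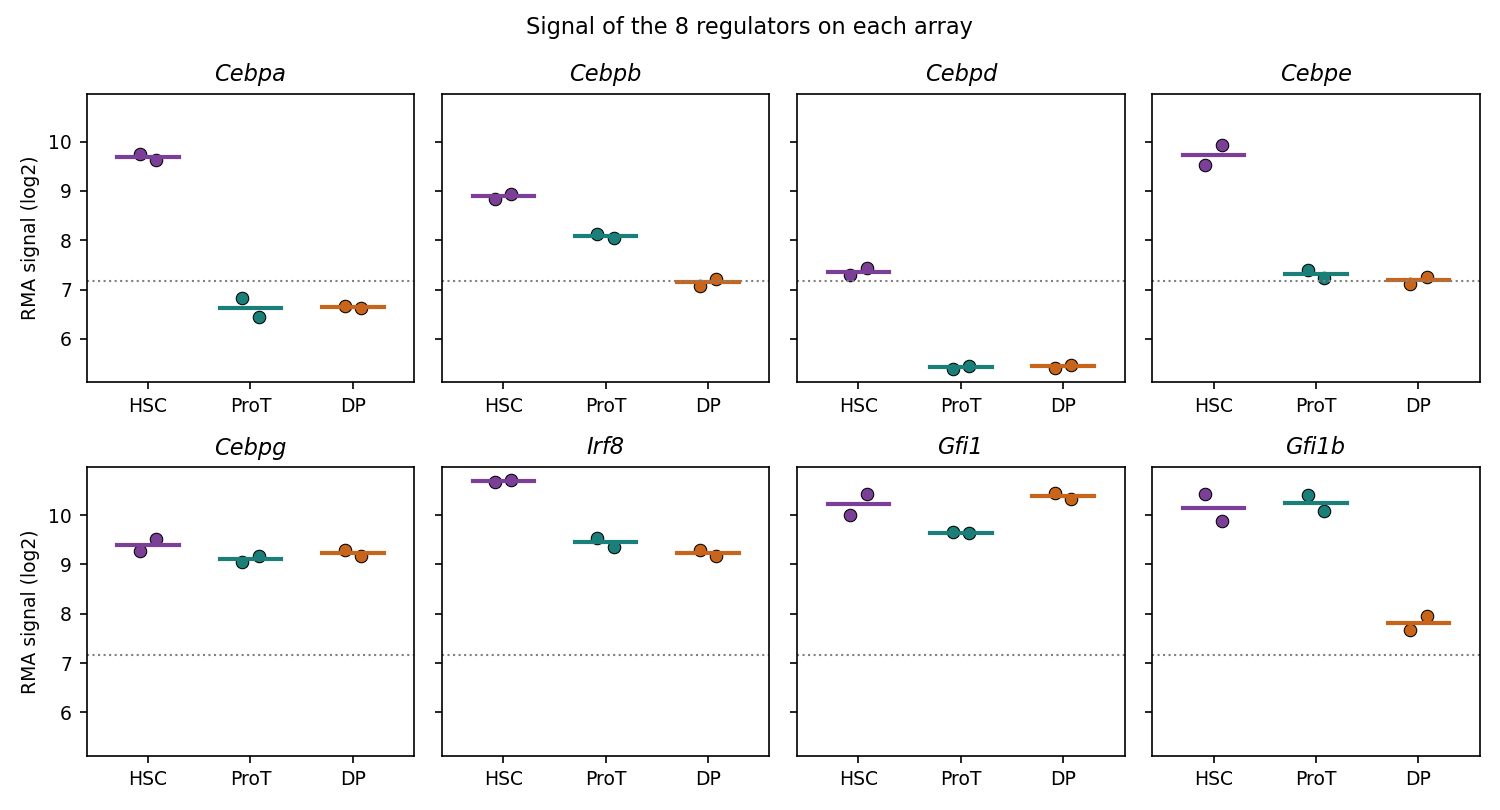
RMA signal on the log2 scale (vertical axis) of the 8 regulator genes in the 2 arrays each of HSC, ProT and DP. Points are arrays, bars are group means, and the dotted line is the median of all gene values (7.17). Cebpa, Cebpd, Cebpe and Irf8 are higher on both HSC arrays than on all others, Cebpd lying only just above the dotted line there. Cebpb steps down at each stage, Cebpg stays near 9, Gfi1 is lowest in ProT and Gfi1b is lowest in DP.

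The first comparison asked how the regulators differ between ProT and HSC, that is after culture with DLL4 and IL7. In this comparison 5 of the 8 fell, namely Cebpa, Cebpb, Cebpd, Cebpe and Irf8, and 0 rose. Over all genes limma, with Benjamini-Hochberg adjustment, called 14.7%, of which 6.90% of all genes were lower and 7.85% higher. Both ProT arrays lay below both HSC arrays for 7 of the 8 (27.0% of all genes) and above them for 0 (25.1% of all genes). At an unadjusted p under 0.05, 7 of the 8 were lower and 0 higher. The share of all genes at that unadjusted p was not counted, and the shares above do not apply to it. The median log2 change of the 8 was -1.02, beside -0.01 over all genes. Cebpa, Cebpd, Cebpe and Irf8 were called lower at this step and not called between ProT and DP, a pattern held by 4 of the 8 and by 3.17% of all genes. For Cebpa and Cebpd the ProT and DP means were under 7.17, and for Cebpe only just above it. A missing call at the second step therefore does not show that these 3 fell no further.

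Cebpa, the gene of the factor that founds the granulocyte and monocyte path, read 9.75 and 9.62 in HSC, 6.83 and 6.43 in ProT, and 6.67 and 6.62 in DP. Both HSC arrays stood well above the other 4, while the ProT and DP values overlapped. The log2 change from HSC to ProT was -3.06 ± 0.14 (SE; adjusted p = 8.24e-05, limma), a fall of at least 8.32-fold. From ProT to DP the change was 0.02 ± 0.14 with a 95% confidence interval of -0.33 to 0.36, and it was negative after median centring, quantile normalization or cyclic loess. ProT lay 1.54 below the midpoint of HSC and DP (-1.54 ± 0.12, adjusted p = 0.000667). Since the ProT and DP means were both under 7.17, a further fall at the second step could not be seen, and this does not show which step held more of the difference. The ProT array with more Cebpa signal, replicate 1, also had the higher signal for 10 of 10 neutrophil markers. The HSC array with more Cebpa signal, also replicate 1, was the higher one for 3 of 10. In DP, replicate 1 had slightly more Cebpa signal (6.67 against 6.62, both under 7.17) and was the higher one for 8 of 10. In ProT, replicate 1 was also the higher one for 6 of 6 erythroid and megakaryocyte markers and for 2 of 8 mast cell and basophil markers. Without ProT replicate 1 the log2 change from HSC to ProT was -3.26, and without ProT replicate 2 it was -2.86.

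Cebpe, whose factor drives the late genes of granulocytes, followed the same course. Its signals were 9.52 and 9.93 in HSC, 7.39 and 7.24 in ProT, and 7.12 and 7.26 in DP. The HSC arrays were apart from the rest and the ProT and DP values overlapped. The fall from HSC to ProT was 5.33-fold (log2 change -2.41 ± 0.15, adjusted p = 0.000297, limma). The second step gave -0.12 ± 0.15, with a confidence interval of -0.49 to 0.25. ProT was 1.15 below the midpoint (-1.15 ± 0.13, adjusted p = 0.00268), with the ProT and DP means, 7.31 and 7.19, only just above 7.17.

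Cebpd, the acute phase member, was just above 7.17 where it was highest. It read 7.29 and 7.44 in HSC, 5.39 and 5.46 in ProT, and 5.42 and 5.48 in DP. Again both HSC arrays were above all others, and ProT and DP interleaved. The log2 change to ProT was -1.94 ± 0.09 (adjusted p = 7.29e-05, limma), at least 3.83-fold. From ProT to DP it was 0.02 ± 0.09, with an interval of -0.19 to 0.23, and negative after median centring, quantile normalization or cyclic loess. ProT and DP were both under 7.17, so a further fall could not be seen here either and the midpoint comparison (-0.98 ± 0.07, adjusted p = 0.000551) does not tell the steps apart.

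Cebpb, which macrophages and granulocytes use under activation, fell at both steps. Its arrays read 8.83 and 8.94 in HSC, 8.13 and 8.05 in ProT, and 7.07 and 7.22 in DP, with no overlap between any of the populations. The first step was -0.79 ± 0.09 (1.73-fold, adjusted p = 0.00285) and the second -0.95 ± 0.09 (at least 1.93-fold, adjusted p = 0.000712, limma). ProT lay 0.08 ± 0.08 from the midpoint of HSC and DP, with an interval of -0.11 to 0.27 and an adjusted p of 0.578. No difference in size between the steps was thus detected, with the DP mean just under 7.17 and the second step a bound.

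For Cebpg, the dimer partner, no step passed the test. Its signals were 9.27 and 9.51 in HSC, 9.05 and 9.18 in ProT, and 9.28 and 9.18 in DP. Both ProT arrays lay below both HSC arrays, the DP values overlapped with those of each other population, and the means spanned 0.27. The change to ProT was -0.27 ± 0.11, with an interval of -0.54 to -0.00 and an adjusted p of 0.183. From ProT to DP it was 0.12 ± 0.11 (interval -0.16 to 0.39; adjusted p = 0.506), with a negative sign after median centring. From HSC to DP it was -0.16 ± 0.11 (interval -0.43 to 0.11; adjusted p = 0.343). In the RefSeq table Cebpg lies near Cebpa on chromosome 7, with Gm45095 and Gm35611 between them.

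**Figure D2:**
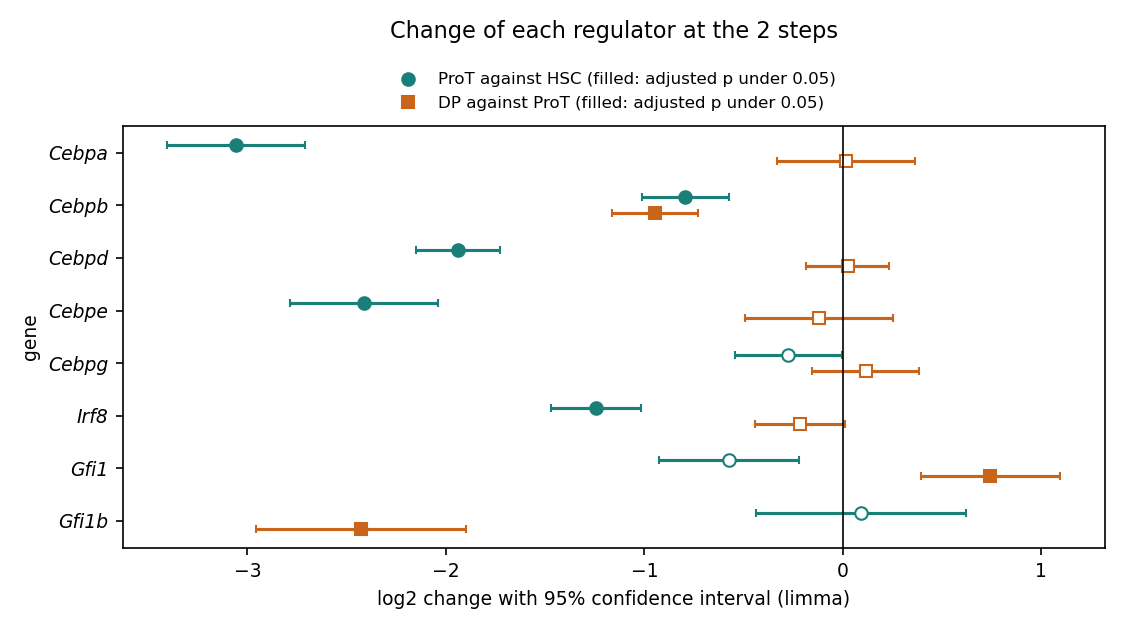
Log2 change of each regulator (horizontal axis) from HSC to ProT (circles) and from ProT to DP (squares), with the 95% confidence interval from limma. Filled symbols passed at an adjusted p under 0.05. Cebpa, Cebpd, Cebpe and Irf8 passed at the first step, Gfi1b and Gfi1 at the second, in opposite directions, and Cebpb at both. For Cebpa and Cebpd, with ProT and DP means under 7.17, a further fall at the second step could not be seen.

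Irf8, the monocyte and dendritic cell factor, fell at the first step. It read 10.67 and 10.71 in HSC, 9.53 and 9.36 in ProT, and 9.29 and 9.17 in DP. The 3 populations did not overlap, and the mean in DP was 9.23 ± 0.08 (SD, n = 2). The first step was -1.24 ± 0.09 (2.37-fold, adjusted p = 0.000602, limma). The second step did not pass, at -0.22 ± 0.09 (interval -0.44 to 0.01; adjusted p = 0.139). It did pass after each array was centred on its median (-0.39, adjusted p = 0.0212), a scaling that by itself moves the median of all genes from 0.02 to -0.16 in this comparison. ProT lay below the midpoint of HSC and DP (-0.51 ± 0.08, adjusted p = 0.0082).

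The second comparison asked what changed between ProT cells and the DP thymocytes formed in mice. Here 2 of the 8 fell, Cebpb and Gfi1b, 1 rose, Gfi1, and the other 5 did not pass. Over all genes limma called 32.6%, with 18.1% of all genes lower and 14.5% higher, so these counts are near the background. Both DP arrays were below both ProT arrays for 3 of the 8, Cebpb, Irf8 and Gfi1b (32.9% of all genes), and above them for Gfi1 (36.1% of all genes). Of all calls 44.6% were higher, and 25.9% after median centring. The median log2 change of the 8 regulators was -0.05, beside 0.02 over all genes.

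Gfi1b, which acts in red cell and platelet precursors and in stem cells, had a high signal in HSC and ProT and a lower one in DP. It read 10.42 and 9.88 in HSC, 10.41 and 10.07 in ProT, and 7.67 and 7.95 in DP. The HSC and ProT values interleaved and both DP arrays were far below them. From HSC to ProT the change was 0.09 ± 0.21, with a wide interval of -0.44 to 0.62 (adjusted p = 0.868), and its sign turned without HSC replicate 2 (-0.18) or without ProT replicate 1 (-0.08). From ProT to DP Gfi1b fell 5.39-fold (log2 change -2.43 ± 0.21, adjusted p = 0.000571, limma), with a more negative change in 1.55% of all genes. ProT stood 1.26 above the midpoint of HSC and DP (1.26 ± 0.19, adjusted p = 0.00673), a sign opposite to that of Cebpe and Irf8. Of the erythroid and megakaryocyte markers, 6 of 10 were measured, and their mean level was 7.16 to 7.73 in HSC, 7.18 to 7.53 in ProT and 6.50 to 6.65 in DP. The erythroid factor genes Gata1 (7.14, 7.18 and 6.55 in HSC, ProT and DP) and Klf1 (6.52, 6.35 and 6.14) were near or below the median of all genes throughout. Genes of the platelet lineage differed in course. The integrin gene Itga2b was at 8.63, 10.20 and 7.26, but Gp9 was at 8.63, 7.30 and 6.99 and Pf4 at 6.99, 6.35 and 5.67. The mast cell and basophil markers had a mean level of 7.12 to 7.32 in HSC, 8.67 to 8.69 in ProT and 5.77 to 5.81 in DP. Replicate 1 was above replicate 2 for Gfi1b in HSC and in ProT. So it was for 5 of the 6 erythroid and megakaryocyte markers in HSC and 6 of 6 in ProT. Other lists leaned the same way, with 6 of 7 stem and progenitor markers in HSC and 10 of 10 neutrophil markers in ProT. Some leaned the other way, with 3 of 10 neutrophil markers in HSC and 2 of 8 mast cell and basophil markers in ProT. In DP replicate 2 was the higher one for Gfi1b (7.95 against 7.67). There replicate 1 was above replicate 2 for 0 of 6 erythroid and megakaryocyte markers. It was so for 8 of 10 neutrophil, 5 of 7 stem and progenitor and 4 of 8 mast cell and basophil markers. The part of erythroid, megakaryocyte, mast or basophil cells in the Gfi1b signal was not tested.

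Gfi1, the member used in both neutrophils and T cells, was lowest in ProT. It read 10.01 and 10.43 in HSC, 9.65 and 9.64 in ProT, and 10.44 and 10.33 in DP. Both ProT arrays were below all others, and the HSC and DP values overlapped. The first step was -0.57 ± 0.14 (interval -0.92 to -0.22) and missed the threshold with an adjusted p of 0.0504. It passed in 6 of 15 alternatives, whose adjusted p ran from 0.00473 (without HSC replicate 1, log2 change -0.78) to 0.172 (without ProT replicate 1). From ProT to DP Gfi1 rose 1.67-fold (log2 change 0.74 ± 0.14, adjusted p = 0.0106, limma). That call was lost without DP replicate 1 (0.69, adjusted p = 0.0857) and without DP replicate 2 (0.80, adjusted p = 0.0635). ProT lay below the midpoint of HSC and DP by 0.66 (-0.66 ± 0.12, adjusted p = 0.0156), which also failed without either ProT or either DP array (adjusted p from 0.0658 to 0.0835). In the fit to all 6 arrays Gfi1 and Gfi1b thus changed in opposite directions at the second step.

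Over the whole path from HSC to DP, 6 of the 8 regulators were lower and 0 higher, against 18.8% and 16.0% of all genes (34.9% either way). At an unadjusted p under 0.05 the counts were also 6 and 0, with the share of all genes not counted. The DP arrays lay below both HSC arrays for the same 6 (32.1% of all genes) and above them for 0 (35.8%). Of all calls 46.0% were higher, and 29.4% after median centring. The DP arrays are shared with the second comparison and the HSC arrays with the first. The measured log2 changes were -2.53 ± 0.15 for Cebpe, -2.34 ± 0.21 for Gfi1b and -1.46 ± 0.09 for Irf8. Those of Cebpa (-3.04 ± 0.14), Cebpd (-1.92 ± 0.09) and Cebpb (-1.74 ± 0.09) are bounds, because their DP means were under 7.17, so the 6 have no full order. All 6 had adjusted p-values of 0.000498 or less in limma. Gfi1 differed by 0.17 ± 0.14 (interval -0.18 to 0.52; adjusted p = 0.434). Without HSC replicate 2 its difference passed (0.38, adjusted p = 0.0303), and without HSC replicate 1 it was -0.04. Against the midpoint, with Cebpa and Cebpd limited as above, 5 of the 8 were called lower in ProT and 1 higher (9.17% and 11.8% of all genes, together 21.0%). With each array centred on its median, 70.7% of the calls of that contrast over all genes were higher in place of 56.3%.

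Target genes of C/EBP factors in granulocytes and monocytes form a list of 23. Of these 22 fell from HSC to ProT and 0 rose, in limma, where 6.90% of all genes fell and 7.85% rose. At an unadjusted p under 0.05 the counts were also 22 and 0, with the share of all genes not counted. The median log2 change of the list was -3.95, beside -0.01 over all genes. The genes with the largest fitted falls included Saa3, an acute phase protein (12.06 ± 0.32 to 5.25 ± 0.24, at least 112-fold), and Lcn2, a neutrophil iron-binding protein (12.90 ± 0.34 to 7.21 ± 1.22; log2 change -5.69 ± 0.53). Cybb, of the phagocyte oxidase, changed by -5.57 ± 0.40 and Csf3r, the G-CSF receptor and a direct C/EBPα target, by -4.98 ± 0.12, a bound. Mmp9, a gelatinase, did not pass (0.02 ± 0.38). Of the 23, 8 are also among the 10 neutrophil markers given above and so are no separate evidence, and 1, Csf1r, is among the monocyte and macrophage markers. The whole list was drawn from genes of granulocytes and monocytes. The remaining genes were therefore not shown to be separate from the amount of such cells either. The part of neutrophils in these falls was not tested.

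At the second step 8 of the 23 rose and 4 fell, where 14.5% of all genes rose and 18.1% fell, and the median was 0.13, beside 0.02 over all genes. The neutrophil protease gene Ctsg (-4.13 ± 0.10), the collagenase gene Mmp8 (-3.27 ± 0.30) and the integrin gene Itgam (-2.51 ± 0.14) fell, the values of Ctsg and Mmp8 being bounds. Lysozyme, Lyz2, rose by 1.75 ± 0.33, a call lost without DP replicate 1 (adjusted p = 0.0786) or DP replicate 2 (adjusted p = 0.0743). Ngp (1.99 ± 0.68) and Lcn2 (1.57 ± 0.53) did not pass, but passed without ProT replicate 1, at 3.13 and 2.43. Ngp also passed without ProT replicate 2, at 0.86. The count of 8 was 1 without either DP array and 5 without ProT replicate 2 or after median centring. Complement genes of macrophages had a higher signal in DP, C1qb at 6.34 in ProT and 9.47 in DP and C1qc at 5.90 and 8.22. Other macrophage and monocyte markers went both ways. Csf1r (6.57 in ProT and 7.22 in DP) and Mrc1 (5.35 and 5.78, both under 7.17) were also higher in DP. Lower in DP were Adgre1 (11.10 in ProT and 7.11 in DP), Ccr2 (11.04 and 6.87), Cd68 (10.38 and 8.93) and Cx3cr1 (7.97 and 7.32). The 9 measured monocyte and macrophage markers as a whole had mean levels of 7.84 to 7.94 in ProT and 7.57 on both DP arrays. The part of macrophages in these rises was not tested. Neither Cebpa nor Cebpe was called at this step.

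The Tribbles genes Trib1 and Trib2 promote the breakdown of C/EBPα. With Trib3 and other leucine zipper genes, not all of them established partners of C/EBP proteins, they form a list of 14. From HSC to ProT 6 rose and 1 fell (7.85% and 6.90% of all genes), with a median of 0.36. Trib2 rose by 0.93 ± 0.14, from 7.20 ± 0.16 to 8.13 ± 0.22, and Dbp, a clock output gene, by 1.01 ± 0.07. Hlf, a stem cell factor, fell by 1.38 on the log2 scale. Batf3 rose by at least 0.85 ± 0.20 (adjusted p = 0.0405), a call that was lost without HSC replicate 2 (0.136), ProT replicate 1 (0.14) or either DP array (0.108). Atf3 (-0.97 ± 0.34) and Trib3 (0.47 ± 0.14) did not pass, although Atf3 did without HSC replicate 1 (-1.49) and Trib3 without ProT replicate 1 (0.64). The count of 6 was 3 without either DP array, and the count of 1 lower was 2 without HSC replicate 1.

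In DP against ProT 2 of these 14 rose, a share near the 14.5% of all genes, and 8 fell (18.1% of all genes), with a median of -0.64. Nfil3, a repressor needed for NK and other innate lymphoid cells, fell at least 9.15-fold (9.83 to 6.64; log2 change -3.19 ± 0.13, adjusted p = 3.45e-05). Hlf changed by -1.81 ± 0.17, a bound, and Batf by -1.11 ± 0.11. Trib3 changed by -0.78 ± 0.14, also a bound (adjusted p = 0.00791), with the call lost without DP replicate 1 (0.0721) or 2 (0.0528). Atf3 (-0.84 ± 0.34) and Trib1 (0.22 ± 0.07) did not pass, and Atf3 passed without either HSC array (adjusted p = 0.00934). Of the 8 that fell 4 were called without DP replicate 2, and of the 2 that rose 0 were called without either DP array and 1 without ProT replicate 1 or after median centring.

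**Figure D3:**
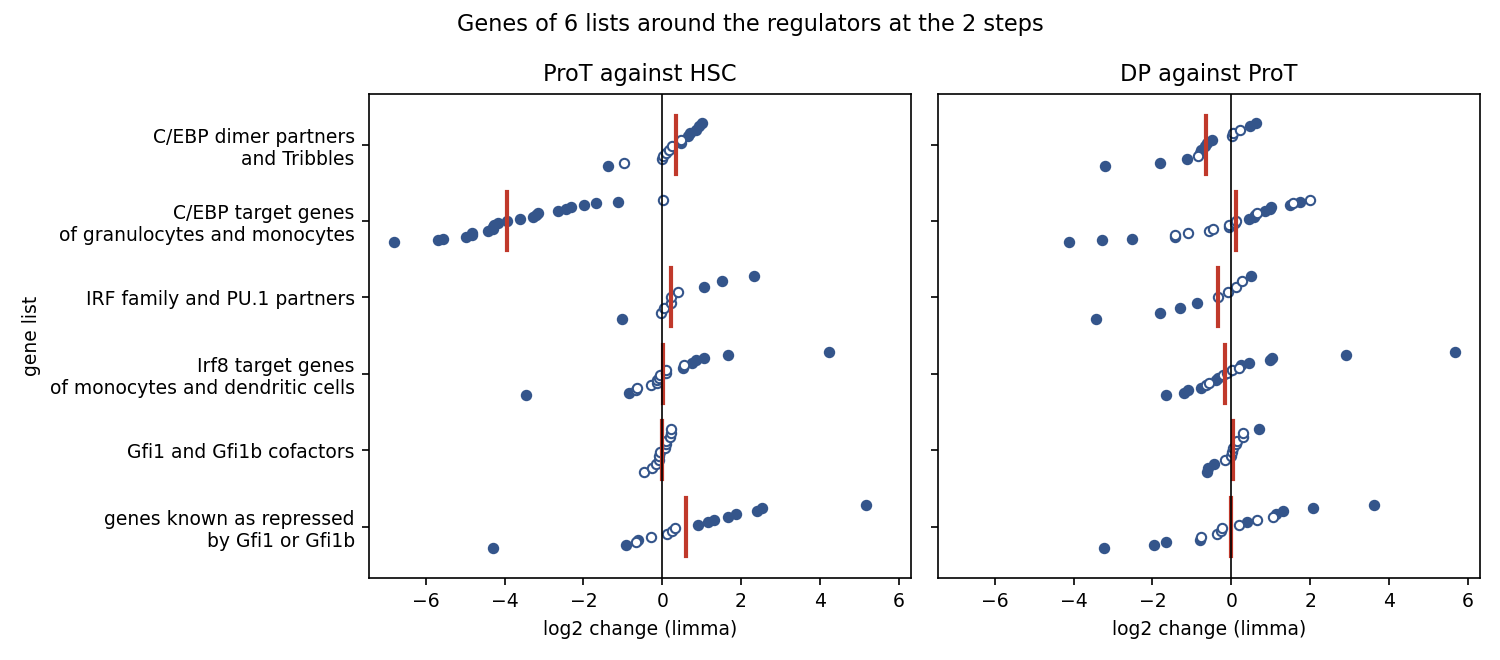
Log2 change of the genes of 6 lists around the regulators (points, filled at an adjusted p under 0.05 in limma) from HSC to ProT and from ProT to DP, with the list median as a red line. The C/EBP target genes are shifted to a median of -3.95 at the first step and spread around 0.13 at the second, and the cofactors of GFI1 stay within 1 unit of 0.

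Among relatives and partners of IRF8, 9 of 10 genes were measured. From HSC to ProT 3 rose and 1 fell (7.85% and 6.90% of all genes), with a median of 0.23, and the 1 of 9 that fell is near the background. Spib, a PU.1 relative of lymphoid and plasmacytoid dendritic cells, rose by at least 2.34 ± 0.20, Irf4, the closest relative of Irf8, by at least 1.51 ± 0.16 (5.85 ± 0.09 to 7.36 ± 0.33) and Irf1 by 1.07 ± 0.12. Spi1, the gene of PU.1, with which IRF8 binds DNA, changed by -1.01 ± 0.22 (adjusted p = 0.0341). This call was lost without HSC replicate 2 (0.0865), without ProT replicate 2 (0.107) or without either DP array (0.108). Irf7 (0.41 ± 0.12) and Irf5 (0.23 ± 0.15) did not pass. At the second step 1 rose, near the 14.5% of all genes, and 4 fell (18.1% of all genes), with a median of -0.33. Spi1 changed by -3.42 ± 0.22, Irf5 by -1.82 ± 0.15, Spib by -1.31 ± 0.20 and Irf1 by -0.86 ± 0.12. Without DP replicate 2 the adjusted p of Spib was 0.0501. Irf4 (-0.33 ± 0.16) and Irf9 (0.28 ± 0.11) did not pass, though Irf4 did without ProT replicate 2 (-0.56) and Irf9 without either HSC array (adjusted p = 0.0318). The 1 that rose was not called without either DP array, and 2 were called without either HSC array.

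Genes that IRF8 is known to act on in monocytes, dendritic cells and B cells form a list of 18. From HSC to ProT 6 rose and 2 fell (7.85% and 6.90% of all genes), with a median of 0.02, and the 2 of 18 that fell are near the background. The invariant chain gene Cd74 rose by at least 4.24 ± 0.25, to 11.24 ± 0.27, the inhibitor gene Id2 by 1.67 ± 0.25 and Naaa, a lysosomal amidase, by 1.05 ± 0.20. Ly86, the MD-1 protein of B cells and macrophages, changed by -3.45 ± 0.49, a bound. The call of Naaa was lost without any 1 of the ProT or DP arrays (adjusted p from 0.0672 to 0.0759). Bcl6 (-0.66 ± 0.18) and Cx3cr1 (-0.64 ± 0.24) did not pass, but did without HSC replicate 1 (-0.94 and -1.01). The count of 6 was 3 without either DP array. The 2 that fell were 4 without HSC replicate 1 and 1 without HSC replicate 2, ProT replicate 2 or either DP array.

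In DP against ProT 6 of the 18 rose and 6 fell (14.5% and 18.1% of all genes), with a median of -0.16. Ly86 rose at least 51.3-fold to 12.14 ± 0.03, and Bcl6, a repressor that thymocytes and germinal centre B cells use, by 2.92 ± 0.18. Id2 changed by -1.66 ± 0.25 and Naaa by -1.19 ± 0.20, the latter with an adjusted p of 0.064 without DP replicate 2. Cd74 (-0.58 ± 0.25) and Cx3cr1 (-0.65 ± 0.24) did not pass, but did without either HSC array (adjusted p = 0.0252 and 0.00666). Of the 6 that fell 3 were called without DP replicate 1 and 1 without DP replicate 2, and with dim genes left out 2 of the list rose. Of the 8 dendritic cell markers 1 had a mean at or above the median of all genes in HSC, while ProT had 3 and DP 2. The defining ones Clec9a (4.97, 4.83 and 5.04 in HSC, ProT and DP) and Xcr1 (5.70, 5.79 and 6.23) were below it in all 3 populations, whereas Itgax (6.08, 9.30 and 6.94) and H2-Aa (5.60, 11.17 and 10.64) were above it in ProT. Of 7 measured B cell markers 2, 1 and 1 were above it. Cd79b was above it in all 3 populations (10.90, 10.40 and 10.89). The defining Cd79a (4.86, 4.96 and 6.89) and Pax5 (6.33, 6.27 and 6.61) were below. The part of such cells in these changes was not tested.

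Genes of the complexes that GFI1 and GFI1B recruit form a list of 13. Of the 12 measured, 0 rose and 0 fell from HSC to ProT in limma (7.85% and 6.90% of all genes). At an unadjusted p under 0.05, 1 was higher and 2 were lower, with the share of all genes not counted. Phf21a (-0.46 ± 0.14) and Cbfa2t2 (-0.26 ± 0.10) had the largest of these differences. Phf21a passed without ProT replicate 2 (-0.63), and Cbfa2t2 without HSC replicate 1 (-0.39), when 1 was called higher and 1 lower. At the second step 1 rose and 3 fell, with a median of 0.04. These 4 of 12 are a share like the 32.6% of all genes called there, so the count is no result about the cofactors. Gse1 rose by 0.71 ± 0.08, the corepressor genes Rcor3 and Rcor2 changed by -0.61 ± 0.18 and -0.58 ± 0.12, and the methylase gene Ehmt2 by -0.44 ± 0.11. Without either DP array all 3 of these falls were lost, and without either ProT array 1 of them was called. Cbfa2t2 (0.30 ± 0.10) and Phf21a (0.30 ± 0.14) did not pass, Cbfa2t2 passing without either HSC array and Phf21a without ProT replicate 2, which brings the higher count to 2 in each case. Kdm1a, the gene of the demethylase LSD1, was chosen for mention after its values were seen, and differed by 0.10 at the first step and -0.02 at the second.

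Of genes known to be repressed by GFI1 or GFI1B, 16 of 19 were measured. From HSC to ProT 8 rose and 3 fell (7.85% and 6.90% of all genes), with a median of 0.61. Il7r, the IL7 receptor, rose by at least 5.17 ± 0.17, the early response gene Egr1 by 2.52 ± 0.33 and the cytokine signal inhibitor Socs1 by 2.40 ± 0.08, while Csf1r, the M-CSF receptor and also a C/EBP target, changed by -4.28 ± 0.20, a bound. Csf1 (-0.68 ± 0.17, both means under 7.17) and Nab2 (0.32 ± 0.25) did not pass, Csf1 passing without ProT replicate 1 (-0.90) and Nab2 without HSC replicate 2 (0.70). At the second step 5 rose and 4 fell (14.5% and 18.1% of all genes), with a median of -0.02. Ets1, a T cell factor, rose by 3.63 ± 0.10 and Id3 by 2.07 ± 0.18, whereas the progenitor genes Hhex and Meis1 changed by -3.22 ± 0.11, a bound, and -1.95 ± 0.22. Egr2 (1.07 ± 0.38) and Egr1 (-0.76 ± 0.33) did not pass, Egr2 passing without ProT replicate 2 (1.68) and Egr1 without ProT replicate 1 (-1.29).

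For 6 of the regulators the means of the populations spanned at least 1 log2 unit, and for these the genes with the most similar pattern were sought among 18702 named genes. Likeness was the root mean square difference of the 6 array values after subtracting each gene's mean. Nearest to Cebpa were Slc22a4 (0.09), Padi4 (0.12), an enzyme of neutrophils, and Met (0.13). Nearest to Cebpe were Septin10 (0.13), Olfml2b (0.14) and Epha7 (0.15), to Cebpd Tmem171 (0.09), F11r (0.10) and Ago4 (0.11), and to Cebpb Fbxl2 (0.07), Lipt2 (0.08) and AI506816 (0.08). Irf8 was closest to Snx24 (0.06), Dgat1 (0.07) and Abcc4 (0.08). Closest to Gfi1b was Zbtb16 (0.06), the gene of the innate lymphocyte factor PLZF, with means of 9.71, 9.79 and 7.34 in HSC, ProT and DP, followed by Tspan4 (0.09) and Gsto1 (0.11). Among the 8 regulators themselves the closest pair was Cebpg and Gfi1 (0.26), next Cebpd and Cebpe (0.28), and the most distant Gfi1 and Gfi1b (1.40). The measure is not scaled to the size of the changes, so genes that moved little lie close together. The means of Cebpg spanned 0.27 and those of Gfi1 0.74, so their closeness does not show a shared course. These distances over 6 arrays are descriptions without a test.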

How the data were processed

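Total RNA of 6 samples (2 each of HSC, ProT and DP) was biotin-labelled and hybridized to Affymetrix gene arrays, per the labels' protocols. The authors deposited 1 table of log2 signals for 35556 probe sets, made with RMA and Partek per the submitters' processing notes; the sources used here give no versions or settings. RMA scales arrays to each other and compresses low signals, so changes of dim genes are understated. A probe table linked 21789 probe sets to 1 gene (19938 genes); the probe set with the highest mean stood for a gene, and 1621 probe sets with several genes and 12146 with none listed were left out. Symbols were matched to RefSeq by gene identifier for 21698 probe sets, with 0 changed.

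A model with 3 population means was fitted to the 6 arrays of every gene in limma 3.58.1 (R 4.3.3) with eBayes (residual degrees of freedom 3, prior 2.83). The contrasts were the differences between each pair of populations and that of ProT from the mean of HSC and DP, called the midpoint. A gene was called where the p, adjusted after Benjamini-Hochberg for 19938 genes, was below 0.05. The ± of a change is its standard error and that of a level its SD over 2 arrays. The fit was tested on simulated data. The regulators and the 6 gene lists, written from general knowledge, were chosen with earlier results of these data known. Named genes are the 8 regulators, for each list and step the 4 called and 2 uncalled members with the largest changes (fewer where fewer exist), the 3 most similar genes of each regulator (predicted genes passed over), and defining cell type markers. The replicate number is not stated to mark a shared animal or batch, so the main fit did not use it. Over genes, the differences of replicate 1 and 2 correlated between populations at 0.06, -0.02 and -0.04. With 1 difference per population, this cannot show whether cultures or animals were shared. Alternatives are given in the closing section. Python 3.11.15 with pandas 2.3.3 and numpy 2.4.6 prepared the tables.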

Additional observations from a re-analysis of the deposited data

How the results depend on the processing

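In the 15 alternatives for each step (14 for the midpoint contrast), the changes called in the report for Cebpa, Cebpb, Cebpd, Cebpe, Irf8 and Gfi1b kept their direction and stayed past the threshold of 0.05, and those of Gfi1 did not, as given there. These alternatives are not 15 separate checks, which also limits the 6 of 15 given for Gfi1. Each regulator has 1 probe set, so the alternatives on the choice of probe set reuse its values. For a step, fitting only its populations equals leaving out either array of the remaining population. At an adjusted p below 0.01 the reported limma fit called 0 regulators higher in DP than ProT in place of 1. Gfi1 (0.74, adjusted p = 0.0106) no longer passed, and its midpoint difference was lost too (adjusted p = 0.0156). At that threshold 891 genes rose and 644 fell from HSC to ProT, 1645 and 2396 from ProT to DP, 2060 rose from HSC to DP, and 1251 higher and 750 lower than the midpoint. Fitting only HSC and ProT gave 1013 higher and 779 lower genes. Centring each array on its median gave 1908 higher and 5468 lower genes in DP than ProT.

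Leaving out 1 array in turn gave 1013 to 1988 higher and 779 to 1994 lower genes in ProT against HSC, 1467 to 3282 and 2047 to 4126 in DP against ProT, 1940 to 3188 and 2361 to 3862 in DP against HSC, and 1258 to 2877 and 776 to 2356 against the midpoint. The regulators called higher then numbered 0 to 1 in DP against ProT and 0 to 1 in DP against HSC. Changes not called in the report that turned their sign were, from ProT to DP, Cebpa (-0.16 after median centring or quantile normalization, -0.0906 after cyclic loess), Cebpd (-0.15, -0.11 and -0.0913) and Cebpg (-0.0602 after centring), and from HSC to ProT Cbfa2t2 (0.0714 with the most variable probe set). With 1 array left out these ranges crossed 0: Gfi1b -0.18 to 0.36, Mmp9 -0.45 to 0.48 and Nab2 -0.05 to 0.70 from HSC to ProT, Cebpa -0.18 to 0.21 and Cebpd -0.0122 to 0.0594 from ProT to DP, and Gfi1 -0.0361 to 0.38 from HSC to DP. A stricter threshold makes fewer calls by construction. Leaving out an array raised some counts and lowered others, and the cause of these and the other shifts was not tested.

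With the replicate number as a block, limma called 1534 genes up and 1311 down from HSC to ProT and 2722 up and 3546 down from ProT to DP, and no call on the 8 regulators changed. Among named list genes the block ended the call of Spi1 from HSC to ProT (adjusted p = 0.0558) and added Irf7 (0.0384) and Phf21a (0.0417) there and Egr2 from ProT to DP (0.0403). With 2 arrays a population, differences within the intervals given were not detectable, and signals under 7.17 were not shown to exceed background.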
